A study of Homo sapiens with 18 samples.

Results

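Resistant 2 is one of the 2 treatment-resistant populations that the study kept beside parental NCI-H460, an established human large-cell lung cancer line that grows as an adherent epithelial culture. The comparison described here set the 3 resistant 2 libraries exposed to all-trans retinoic acid (ATRA) plus decitabine against the 3 resistant 2 libraries given solvent, so its members are 6 of the 18 libraries of the series and were picked by their labels. Treated wells received 2 µM ATRA with decitabine, labelled as 50 µM and as the high decitabine arm, and control wells received DMSO at 0.7% (v/v). Both were dosed 24 hours after seeding and lysed at 72 hours, a 48-hour exposure, in RPMI-1640 with 10% fetal bovine serum, and RNA was sequenced from stranded poly(A)-selected libraries. All groups are labelled wild type. The other 12 libraries are the same 2 arms in parental and in resistant 1 cells, with 3 libraries per group, and serve here only for the differences between responses and for the shared estimate of spread. There was no library with ATRA alone or decitabine alone, so the effects of the 2 drugs cannot be told apart, and how the resistant populations were raised is not given in the sources used here. The labels call the replicates biological without naming separate cultures, so p-values measure the spread between these libraries.

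ATRA enters the nucleus with the help of the carrier CRABP2 and binds the receptors RARA, RARB and RARG, which sit on DNA as partners of RXR proteins at direct repeats of a short half-site and switch neighbouring genes on. Direct targets include the RARB gene itself and genes that take up, store or break down retinoids, such as STRA6 and DHRS3. Decitabine is a cytidine analogue that cells import through nucleoside transporters, phosphorylate by deoxycytidine kinase (DCK) and build into DNA, where it traps DNA methyltransferases. Loss of methylation in dividing cells is known to release germ-line genes such as the MAGE and SSX families, and the trapped adducts are known to cause DNA damage.

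The promoters of 3 genes that rose in treated resistant 2 cells and hold a direct repeat of the retinoic acid half-site are shown first, followed by that of the cancer-testis gene MAGEA4. They are RefSeq windows of 250 bases upstream of a transcript start (GRCh38.p14), 5′ to 3′ on the strand of the gene. Capitals mark the half-sites in the first 3, where the half-site AGGTCA and its variants that open with G or carry T as the middle letter were searched on both strands as direct repeats with a spacer of 1, 2 or 5 bases. Capitals mark CG dinucleotides, the sites of DNA methylation, in MAGEA4. The RARB window lies at chr3:25428013-25428262 on the plus strand, with the repeat 53 bases from the start. The BATF2 window lies at chr11:64990278-64990527 on the minus strand, with the repeat 29 bases from the start. The HROB window lies at chr17:44141680-44141929 on the plus strand and carries the repeat in reverse, 164 bases from the start. The MAGEA4 window lies at chrX:151912224-151912473 on the plus strand.
RARB: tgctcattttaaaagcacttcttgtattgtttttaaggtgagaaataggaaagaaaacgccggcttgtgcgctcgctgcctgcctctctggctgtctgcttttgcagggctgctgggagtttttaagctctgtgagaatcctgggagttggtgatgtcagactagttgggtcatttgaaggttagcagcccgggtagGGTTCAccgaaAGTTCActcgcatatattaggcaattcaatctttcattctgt
BATF2: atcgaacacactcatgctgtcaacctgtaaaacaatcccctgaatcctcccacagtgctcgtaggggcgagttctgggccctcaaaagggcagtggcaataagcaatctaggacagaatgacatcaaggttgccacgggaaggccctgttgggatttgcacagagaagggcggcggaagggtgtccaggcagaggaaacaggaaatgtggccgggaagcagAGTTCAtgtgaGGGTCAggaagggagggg
HROB: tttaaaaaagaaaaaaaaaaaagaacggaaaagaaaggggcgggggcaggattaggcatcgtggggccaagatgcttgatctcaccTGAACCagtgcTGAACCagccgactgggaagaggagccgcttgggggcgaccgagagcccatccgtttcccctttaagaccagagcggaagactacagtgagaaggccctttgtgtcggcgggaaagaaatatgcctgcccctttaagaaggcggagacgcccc
MAGEA4: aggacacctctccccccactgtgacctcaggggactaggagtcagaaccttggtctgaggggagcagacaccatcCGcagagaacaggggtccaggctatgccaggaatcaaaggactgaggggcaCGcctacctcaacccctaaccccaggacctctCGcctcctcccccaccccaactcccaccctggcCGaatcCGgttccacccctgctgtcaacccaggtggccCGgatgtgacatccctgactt

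RARB encodes retinoic acid receptor beta. It stood at 22.7, 31.5 and 34.2 CPM with DMSO (replicates 1 to 3, in reads scaled to 1e6 per library, CPM) and at 43.3, 59.2 and 57.1 CPM with the drugs. The groups did not overlap, and the log2 fold change was 0.84 ± 0.13 (SE), adjusted p = 2.38e-04. BATF2, an interferon-inducible basic leucine zipper factor, rose from 2.32, 2.03 and 2.57 CPM to 7.20, 5.39 and 7.41 CPM (log2 fold change 1.21 ± 0.12 (SE), adjusted p = 5.55e-06). HROB, which loads the MCM8-MCM9 helicase during homologous recombination, rose from 1.86, 1.74 and 2.45 CPM to 3.72, 3.51 and 4.49 CPM (log2 fold change 0.70 ± 0.13 (SE), adjusted p = 0.00152). A direct repeat of this kind lay in 0.202% of all 35116 promoters, and in 0.0968%, 0.0313% and 0.074% for spacers of 1, 2 and 5 bases. Of 36 tested genes with one, 4 rose and 0 fell, which is 11.1% higher against 11.5% of the 12822 tested genes that have a promoter entry. The 4 genes are RARB, BATF2, HROB and BTBD19 and were picked with their values in view. The RefSeq windows of STRA6, DHRS3 and HAL hold no such letters. The MAGEA4 window shown, 1 of 5 in RefSeq, holds 6 CG dinucleotides, and the windows of its other transcript starts hold 7, 11, 12 and 14, where the median promoter holds 11 and the lower quartile 3.

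The resistant 2 libraries held 112 to 132 M reads (M for 1e6) in genes with a restored value, within the range of 112 to 178 M over all 18 libraries. Treatment coincided with the deposited table: the DMSO and the treated libraries were normalized by the authors in separate tables, and the treated table had lost its decimal points. The requirement that every value be a whole number of reads fixed each number up to a power of 10. Statistical models then chose that power, 1 of them centred on the DMSO level of the same population. The points were restored in this way for 20218 of 25575 genes (79.1%), and for 97.7% of genes with a mean of at least 1000 normalized counts. A wrongly restored value would be off by a factor of 10. Removing the points from the DMSO table and restoring them in the same way gave 1 wrong gene of 14932. This check covered only genes whose treated level had been settled without the DMSO level. Restored without use of the other treatment, the DMSO table had 11 wrong genes of 16608. The spreads in the models were fitted on the DMSO reads themselves, so the error rate of the treated table was not measured. Of the 115 genes named by rule and called higher, 95 had 3 treated counts that do not end in 0, which are the smallest counts their digits allow. The other direction is less open to view, since genes that fell about 10-fold could be left unresolved or restored 10-fold too high. How often either occurred was not tested, and no called gene had a log2 fold change under -2. The cells matched an epithelial label only in part: KRT8, KRT18 and KRT19 made up the marker sum of 1173 to 1802 CPM with DMSO and 1203 to 1604 CPM with the drugs, while EPCAM and CDH1 were below 1 CPM in every group of resistant 2. The 7 restored immune markers summed to 0.852 to 1.11 CPM with DMSO and 1.10 to 1.37 CPM with the drugs. The 4 restored endothelial markers summed to 1.02 to 2.11 and 1.23 to 1.69 CPM, and the 4 restored fibroblast markers, led by PDGFRB and COL3A1, to 13.3 to 16.1 and 9.15 to 15.1 CPM. In bulk RNA, a change in the share of cells that express a gene and a change in RNA per cell cannot be told apart.

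Exposure to ATRA and decitabine raised 2104 genes in resistant 2 cells (10.3% of 20448 tested) and lowered 1477 (7.22%), at an adjusted p under 0.05. Among the called genes, 217 rose by more than 1 on the log2 scale and 26 by more than 2, while 70 fell by more than 1. The test was limma on log2(CPM + 1) with 18 libraries sharing one estimate of spread, so fold changes of genes near 1 CPM are understated. With all 3 libraries of one arm above the 3 of the other, 3136 genes were higher (15.3%) and 2371 lower (11.6%). When scaled by library totals alone, which moved the median of all genes from 0.004 to 0.05, 3077 genes were higher and 813 lower, so 79.1% of calls were higher against 58.8% in the main result. Fitted without the other populations, 1003 genes were higher and 534 lower, and with the replicate numbers as a block in those 6 libraries 3062 and 2771. A principal component analysis of the 2000 most variable genes in the 6 libraries separated the arms on the first component (68.5% of variance), and the second (21.8%) ordered the replicate numbers alike in both arms. Of the 177 genes named by rule and called in resistant 2, 85 were not called in the 6 libraries alone, 41 lost the call with at least 1 library left out, and 8 lost it with the replicate block in the 6 libraries, while 0 changed sign in any setting.

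HAL, which encodes the histidine-degrading enzyme histidase (ENSG00000084110, chr12:95972662-95996365), led the genes that rose. It stood at 0.559, 0.366 and 0.315 CPM with DMSO and at 18.8, 27.9 and 23.4 CPM with the drugs. Every treated library lay far above every control, and the log2 fold change was 4.10 ± 0.16 (SE), adjusted p = 2.26e-10. PGF, the placental growth factor of the VEGF family (ENSG00000119630, chr14:74941834-74955784), went from 1.58, 0.953 and 1.28 CPM to 29.4, 31.5 and 37.8 CPM, again with no overlap (log2 fold change 3.90 ± 0.15 (SE), adjusted p = 1.82e-10). MUC2, a gel-forming mucin of the gut, stood at 0.391, 0.137 and 0.0669 CPM and at 24.8, 10.3 and 9.61 CPM, with 1 treated library above the other two (log2 fold change 3.61 ± 0.27 (SE), adjusted p = 2.15e-07). GPX2, a glutathione peroxidase of epithelia, rose from below 0.1 CPM in each control to 11.5, 5.87 and 8.56 CPM (log2 fold change 3.13 ± 0.16 (SE), adjusted p = 2.45e-09). ELF3, an epithelial ETS transcription factor, and CLDN7, a tight junction claudin, were also near silent with DMSO. ELF3 went from 0.790, 0.357 and 0.554 CPM to 9.72, 9.05 and 14.0 CPM (log2 fold change 2.91 ± 0.16 (SE), adjusted p = 7.73e-09), and CLDN7 from 0.213, 0.0916 and 0.191 CPM to 8.36, 6.74 and 7.70 CPM (log2 fold change 2.88 ± 0.11 (SE), adjusted p = 1.16e-10). COL9A2, a cartilage collagen chain, SLC51B, a subunit of a bile acid and steroid exporter, and CYP2S1, a cytochrome P450 enzyme, completed the leading rises at log2 fold changes of 3.02, 2.80 and 2.72 (adjusted p = 7.30e-09, 5.26e-08 and 1.73e-06). The adjusted p of these genes stayed under 0.05 with any 1 library left out.

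**Figure D1:**
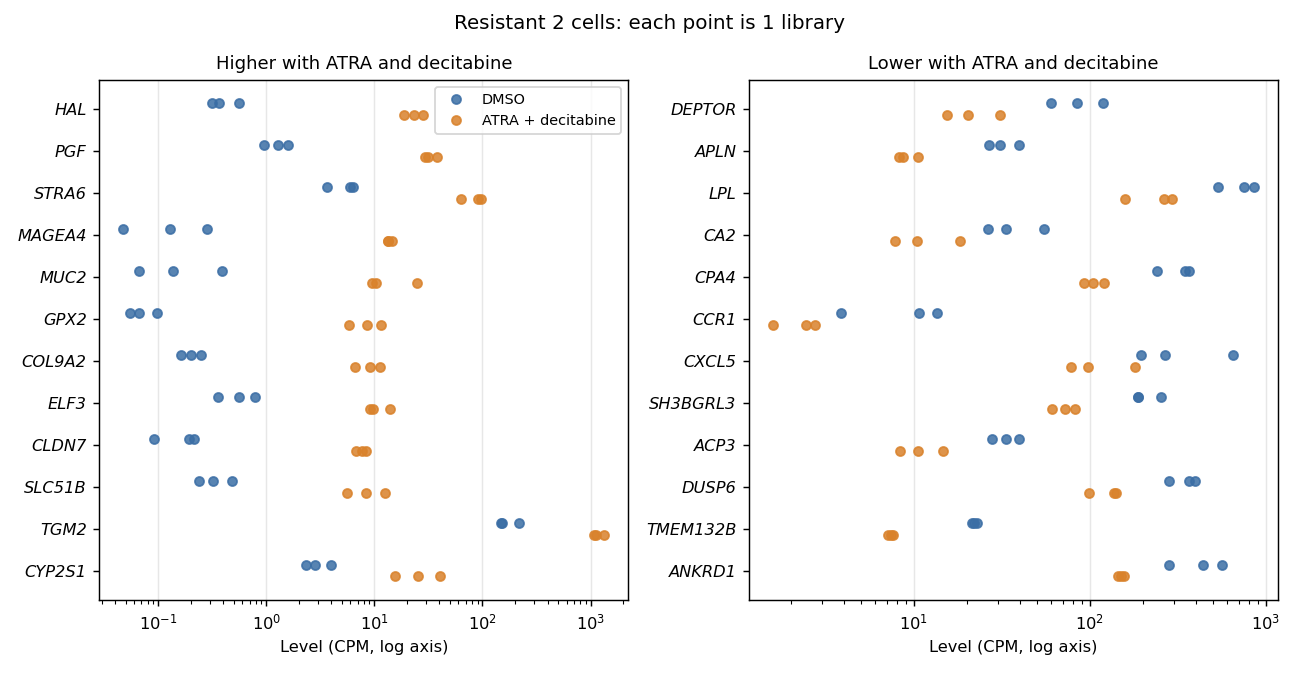
Level of the 12 genes with the steepest rise (left) and the steepest fall (right) in resistant 2 cells, in CPM on a log axis; each point is 1 library, blue for DMSO and orange for ATRA plus decitabine. The 2 colours do not overlap for any of the 24 genes, as the naming rule required, and the rises span a wider range than the falls.

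Retinoic acid target genes moved upward in part. Of 28 tested targets, 13 rose (46.4%) and 2 fell (7.14%), against 10.3% and 7.22% of all genes. The median log2 fold change was 0.27 against 0.004 over all genes. STRA6, the membrane receptor that takes up retinol from its carrier (ENSG00000137868, chr15:74179466-74212267), stood at 6.35, 3.66 and 5.98 CPM with DMSO and at 96.4, 63.8 and 90.1 CPM with the drugs. The groups were far apart, with a log2 fold change of 3.74 ± 0.20 (SE), adjusted p = 5.57e-09. TGM2, tissue transglutaminase (ENSG00000198959, chr20:38127387-38166578), a classical retinoic acid target, went from 216, 147 and 153 CPM to 1342, 1079 and 1132 CPM (log2 fold change 2.79 ± 0.21 (SE), adjusted p = 1.98e-07). DHRS3, which reduces retinal back to retinol, rose from 54.6, 34.1 and 35.1 CPM to 259, 215 and 237 CPM (log2 fold change 2.52 ± 0.15 (SE), adjusted p = 1.68e-08). ICAM1, the intercellular adhesion molecule, rose by 1.95 (adjusted p = 4.63e-05), and HOXA2 and HOXA5, developmental transcription factors, by 1.43 and 0.93 (adjusted p = 5.06e-06 and 5.56e-04). Among the list's other rises were LRAT, SMPD3, RET, NRIP1, RARB and CRABP2. SOX9 and MEIS1, of the same class of proteins, fell by 0.52 and 0.43 (adjusted p = 6.60e-04 and 0.00482).

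Among 23 tested receptors, binding proteins and retinoid enzymes, 6 rose (26.1%) and 1 fell (4.35%), against 10.3% and 7.22% of all genes. These counts were 10 and 4 with the replicate block in the 6 libraries. RARA, the most widely expressed retinoic acid receptor, went from 20.2, 16.3 and 18.1 CPM to 40.5, 44.4 and 53.5 CPM, without overlap (log2 fold change 1.29 ± 0.15 (SE), adjusted p = 2.02e-05). RARG, the receptor of skin and other epithelia, rose from 42.1, 32.4 and 36.5 CPM to 61.0, 44.6 and 52.8 CPM (log2 fold change 0.50 ± 0.12 (SE), adjusted p = 0.00712). RXRA, the common partner of these receptors, stood at 79.2, 65.5 and 101.05 CPM and 129, 104 and 161 CPM and was called at a log2 fold change of 0.68 ± 0.21 (SE), adjusted p = 0.0315. That call was lost without treated replicate 1 or 3 or without DMSO replicate 1 or 2, with adjusted p up to 0.159. CRABP2, the carrier that hands retinoic acid to the receptors, stayed low, at 0.790, 0.687 and 0.908 CPM and 1.49, 1.07 and 1.13 CPM (log2 fold change 0.31 ± 0.092 (SE), adjusted p = 0.0270), and its call was lost without treated replicate 1 or DMSO replicate 1 or 2 (adjusted p up to 0.1203) and with the replicate block in the 6 libraries (adjusted p = 0.0573). The plasma retinol carrier gene RBP4 rose by 0.87 (adjusted p = 4.09e-04). ALDH1A1, a retinal dehydrogenase that makes retinoic acid, was the member that fell, from 1906, 1526 and 1249 CPM to 1151, 782 and 633 CPM (log2 fold change -0.89 ± 0.18 (SE), adjusted p = 0.00260). The ATRA hydroxylase genes CYP26A1 and CYP26B1 and the enzyme gene ALDH1A3 could not be restored and are not analysed here.

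Of 20 tested genes of the DNA methylation machinery, 3 rose and 0 fell, near the 10.3% and 7.22% of all genes, with a median log2 fold change of -0.02. An unadjusted p under 0.05, edgeR and DESeq2 also gave 0 lower members, and the replicate block in the 6 libraries gave 5 higher and 2 lower. DNMT1, the maintenance methyltransferase, stood at 51.8, 56.8 and 78.9 CPM with DMSO and at 83.0, 84.8 and 108 CPM with the drugs, which did not overlap (log2 fold change 0.56 ± 0.13 (SE), adjusted p = 0.00508). HELLS, a chromatin remodeller needed for methylation of repeats, was called at 0.81 (adjusted p = 0.00537) with overlapping groups, and the repair glycosylase gene MBD4 at 0.32 (adjusted p = 0.0179), a call lost without treated replicate 2 or DMSO replicate 3 (adjusted p up to 0.1198). DNMT3A stood at 33.8 and 30.2 CPM (log2 fold change -0.15, adjusted p = 0.247), UHRF1 at 8.44 and 16.4 CPM (0.97, adjusted p = 0.0790) and TET1 at 2.38 and 2.01 CPM (-0.15, adjusted p = 0.623), none past the test. DNMT3A was called lower (adjusted p = 0.0369) and UHRF1 higher (adjusted p = 0.0132) with the replicate block in the 6 libraries. Of the 20 decitabine uptake and metabolism genes in the test, 5 rose (25%) and 1 fell (5%), against 10.3% and 7.22% of all genes. The rises were 10 with the replicate block in the 6 libraries and 8, with 0 falls, by library totals. SLC29A2, an equilibrative nucleoside transporter, rose from 2.12, 2.02 and 1.61 CPM to 3.40, 3.48 and 4.11 CPM (log2 fold change 0.68 ± 0.12 (SE), adjusted p = 6.15e-04). The main transporter gene SLC29A1 stood at 3.53, 5.51 and 10.4 CPM and 7.42, 9.40 and 13.5 CPM (log2 fold change 0.64 ± 0.24 (SE), adjusted p = 0.0852). The arms overlapped, but each treated library lay above the control of its number, and the adjusted p was 0.0605 with the replicate block in 18 libraries and 0.0389 with it in the 6. DCK, which activates decitabine, stood at 17.6, 18.1 and 20.5 CPM and 17.6, 23.5 and 26.3 CPM (log2 fold change 0.24 ± 0.12 (SE), adjusted p = 0.218). SAMHD1, which degrades deoxynucleotide triphosphates, TK1 and TYMS, which make thymidine nucleotides, were called higher at 0.55, 1.15 and 0.62 (adjusted p = 0.0316, 0.0304 and 0.0241) with overlapping groups, and DCTD, the dCMP deaminase, lower at -0.22 (adjusted p = 0.0124). These 4 calls were lost without treated replicate 3 or DMSO replicate 1, all but that of DCTD without DMSO replicate 2, and those of TYMS and SAMHD1 without treated replicate 2 (adjusted p up to 0.192). Without treated replicate 3 only 1 member of this list was called higher and 0 lower, and without treated replicate 1 the count was 9 higher.

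Part of the germ-line genes that are normally methylated in somatic cells rose from near silence. Of 27 tested cancer-testis genes, 12 rose (44.4%) and 0 fell (median log2 fold change 0.14), against 10.3% and 7.22% of all genes. The lower count was 0 also at an unadjusted p under 0.05 and by edgeR and DESeq2. Of 36 germ cell and piRNA genes 11 rose (30.6%) and 1 fell (median 0.05), with 17 higher by DESeq2. Genes near 0 reads with DMSO have no room to fall. They pass the read filter only through libraries where they are higher, so the low counts of falls are no evidence. No value could be restored for 29 of the 63 cancer-testis genes and 22 of the 63 germ cell genes. MAGEA4 (ENSG00000147381, chrX:151912509-151925170) stood at 0.284, 0.128 and 0.0478 CPM with DMSO, which is 32, 14 and 5 reads, and at 14.6, 13.5 and 13.2 CPM with the drugs. The treated libraries lay within a narrow band far above the controls (log2 fold change 3.69 ± 0.082 (SE), adjusted p = 1.08e-13). SSX1, a synovial sarcoma antigen, went from 8, 9 and 15 reads to 2.73, 3.48 and 3.57 CPM (log2 fold change 1.95 ± 0.086 (SE), adjusted p = 6.11e-10). TKTL1, a transketolase-like gene, went from 2, 0 and 1 reads to 1.10, 3.16 and 3.13 CPM (log2 fold change 1.71 ± 0.22 (SE), adjusted p = 4.13e-05). MAGE and SSX genes have near-identical copies, so reads could have been divided among them and the single-gene values are uncertain. GTSF1, TDRD1 and MAEL, which act in piRNA silencing of transposons, reached means of 2.86, 1.02 and 1.24 CPM from 0.0118, 0.00318 and 0.0549 CPM (adjusted p = 5.06e-06, 2.18e-05 and 0.00350). PIWIL1, which guides piRNAs, was called lower at -0.23 (adjusted p = 0.0317) with overlapping groups, a call lost without either of treated replicates 2 and 3 or DMSO replicates 2 and 3 (adjusted p up to 0.129), with edgeR (adjusted p = 0.270) and with the replicate block in 6 libraries (adjusted p = 0.204). Without treated replicate 3 the cancer-testis count was 8. Among 23 imprinted genes 6 rose (26.1%) and 1 fell (4.35%), against 10.3% and 7.22% of all genes. MEG3, a maternally expressed noncoding RNA, went from 2, 0 and 0 reads to 4.27, 3.14 and 3.50 CPM (log2 fold change 2.20 ± 0.20 (SE), adjusted p = 1.60e-06). Fold changes of genes with only a few control reads depend on the 1 CPM added before the logarithm. TFPI2, a protease inhibitor, rose from 106, 93.9 and 102 CPM to 199, 198 and 226 CPM (log2 fold change 1.03 ± 0.18 (SE), adjusted p = 8.28e-04). The imprinted member called lower, BLCAP, was at -0.18 (adjusted p = 0.0433), and was not called with the replicate block (adjusted p = 0.0545) or without treated replicate 1 or 3 or DMSO replicate 2 or 3 (adjusted p up to 0.164).

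Genes of G1/S and replication, of mitosis and of recombination repair had the highest shares of members called higher among the 31 lists, at 81.6%, 82.5% and 64.7% against 10.3% of all genes. Of 38 tested G1/S and replication genes 31 rose and 0 fell (median log2 fold change 0.78), of 40 G2/M and mitosis genes 33 rose and 1 fell (median 0.59), and of 34 homologous recombination and Fanconi genes 22 rose and 0 fell (median 0.54). At an unadjusted p under 0.05 the lower members were 1 of G1/S and 0 of recombination, and edgeR and DESeq2 each called 1 and 0. MKI67, the proliferation antigen (ENSG00000148773, chr10:128096659-128126385), stood at 66.0, 77.3 and 100.54 CPM with DMSO and at 136, 150.4 and 187 CPM with the drugs. The lowest treated library lay above the highest control (log2 fold change 0.96 ± 0.14 (SE), adjusted p = 2.21e-04). FOXM1, the transcription factor of the G2/M programme, went from 35.8, 36.2 and 44.6 CPM to 68.1, 69.5 and 83.4 CPM (log2 fold change 0.91 ± 0.10 (SE), adjusted p = 1.33e-05). BRCA2, of homologous recombination repair, went from 7.29, 7.42 and 9.75 CPM to 16.6, 19.3 and 21.9 CPM (log2 fold change 1.15 ± 0.12 (SE), adjusted p = 7.12e-06). BRCA1, BLM and RAD54L of the same repair pathway rose by 1.09, 1.03 and 1.19 (adjusted p = 4.73e-04, 1.82e-04 and 6.08e-04), and CDC45, of the replicative helicase, and E2F1, which drives S-phase genes, by 1.11 and 1.10 (adjusted p = 0.00220 and 0.00245). KIF23 and TPX2, spindle proteins, rose by 0.82 and 0.79 (adjusted p = 6.18e-05 and 8.54e-05). CDC25B, a phosphatase that starts mitosis, fell by 0.64 (adjusted p = 5.85e-05). The 7 G1/S members that were not called were MCM6, SLBP, CCNE1, DBF4, POLA1, PRIM2 and CCNE2.

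These lists differed between replicates of one arm as well as between arms. The median G1/S gene lay at -0.39, -0.08 and 0.47 in DMSO replicates 1 to 3, on the log2 scale relative to the mean of those 3 libraries, and at 0.43, 0.76 and 1.07 in the treated libraries. The first treated library was therefore below the third control. MCM2, a helicase subunit, is an example of this overlap, at 10.8, 14.1 and 29.4 CPM with DMSO and 26.6, 31.8 and 48.4 CPM with the drugs (log2 fold change 1.01 ± 0.27 (SE), adjusted p = 0.0156), and its call was lost without treated replicate 3 or DMSO replicate 1 or 2 (adjusted p up to 0.0944). CCNB1, the mitotic cyclin, overlapped likewise, at 70.4, 84.3 and 112 CPM and 108, 120.4 and 146 CPM (log2 fold change 0.49 ± 0.14 (SE), adjusted p = 0.0177), and lost its call without the same libraries (adjusted p up to 0.116). The G2/M medians were -0.17, -0.10 and 0.27 with DMSO and 0.37, 0.52 and 0.81 with the drugs, and those of the recombination list -0.17, -0.02 and 0.21 against 0.37, 0.59 and 0.71, so these medians did not overlap. Each same-numbered treated library was above its control in all 3 lists. In a fit of the 6 libraries alone, the counts called higher were 3 of G1/S, 10 of G2/M and 3 of recombination. With the replicate numbers as a block in those 6 libraries they were 34, 36 and 22. Without treated replicate 3 they were 17, 21 and 19. No cell count or growth rate per well was used here, and the part of growth in these differences was not tested.

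**Figure D2:**
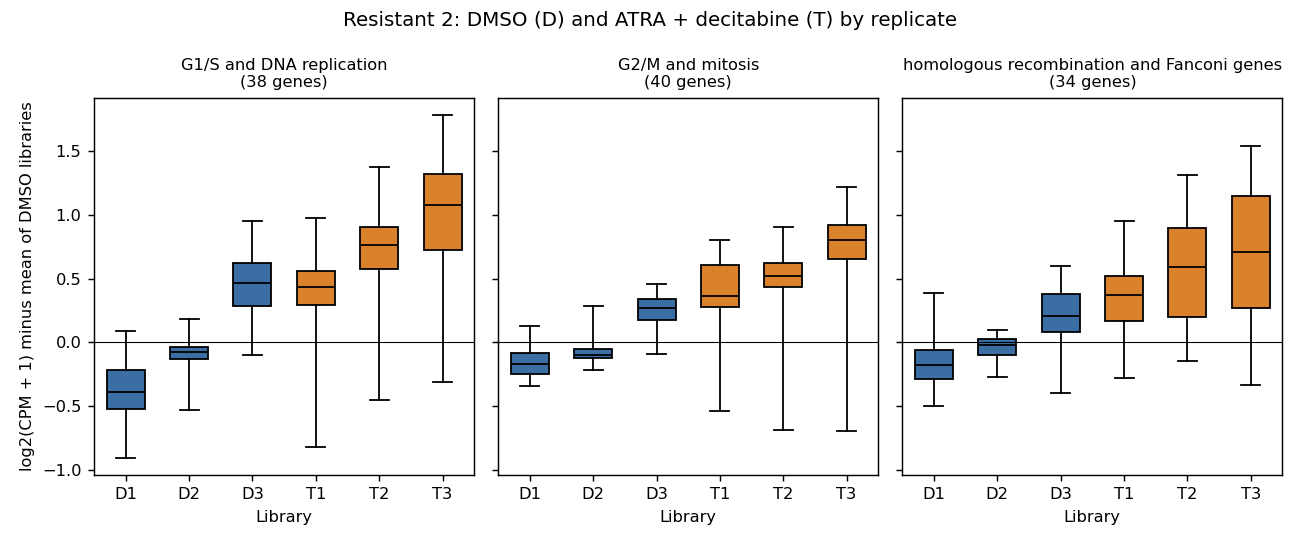
Spread of 3 gene lists in each resistant 2 library, DMSO (D, blue) and ATRA plus decitabine (T, orange) by replicate number; the vertical axis is log2(CPM + 1) minus the mean of the DMSO libraries, boxes span the quartiles of the genes, whiskers their full range, and the black line is the median. In the G1/S panel the third DMSO library (median 0.47) sits above the first treated one (0.43), and within each number the treated median is the higher one.

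Of 41 tested genes that p53 switches on, 6 rose and 3 fell (median log2 fold change 0.11). These shares of 14.6% and 7.32% lay near the 10.3% and 7.22% of all genes. The count called higher was 3 without treated replicate 3, 14 with the replicate block in the 6 libraries and 15 with library totals. CDKN1A, which encodes the cell cycle inhibitor p21 (ENSG00000124762, chr6:36676460-36687339), stood at 1275, 994 and 908 CPM with DMSO and at 874, 783 and 753 CPM with the drugs. It was called lower at a log2 fold change of -0.39 ± 0.12 (SE), adjusted p = 0.0301. That call was lost without treated replicate 2 or 3 or DMSO replicate 1 (adjusted p up to 0.144), in the 6 libraries alone (adjusted p = 0.188) and with library totals (adjusted p = 0.1196). MDM2, the ubiquitin ligase that restrains p53, stood at 548, 565 and 516 CPM and 597, 754 and 736 CPM (log2 fold change 0.35 ± 0.095 (SE), adjusted p = 0.0160), and its call was lost without treated replicate 2 or 3 or DMSO replicate 3 (adjusted p up to 0.0988) and with the block in 6 libraries (adjusted p = 0.0676). TNFRSF10C, a decoy receptor for TRAIL, rose by 1.09 (adjusted p = 1.23e-05) and BTG2, an antiproliferative factor, by 0.47 (adjusted p = 0.00465). PLK2, a stress-induced kinase, and PERP, a desmosomal protein, fell by 0.74 and 0.47 (adjusted p = 0.00234 and 7.52e-04). RRM2B, the p53-induced ribonucleotide reductase subunit, stood at 521 and 554 CPM (log2 fold change 0.095, adjusted p = 0.674). Of 19 tested BCL2 family genes 4 rose (21.1%) and 0 fell, against 10.3% and 7.22% of all genes. The rises were 2 without treated replicate 3, and 3 genes fell with the replicate block in the 6 libraries. BCL2L11, the death-promoting BIM, rose from 21.9, 18.3 and 14.7 CPM to 37.6, 40.9 and 31.6 CPM (log2 fold change 0.98 ± 0.12 (SE), adjusted p = 3.65e-05). Of the 4 tested CDK inhibitor genes, CDKN2D and CDKN3 rose by 0.88 and 0.46 (adjusted p = 1.80e-04 and 0.00245), beside CDKN1A.

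Of 31 tested EMT regulators and mesenchymal genes, 15 fell (48.4%) and 6 rose (19.4%), against 7.22% and 10.3% of all genes. The median log2 fold change was -0.24 against 0.004 over all genes. NT5E, the ecto-nucleotidase CD73 (ENSG00000135318, chr6:85449584-85495791), stood at 218, 215 and 239 CPM with DMSO and at 105, 83.7 and 80.8 CPM with the drugs (log2 fold change -1.32 ± 0.15 (SE), adjusted p = 1.55e-05). VIM, vimentin, the intermediate filament of mesenchymal cells, went from 1625, 1407 and 1492 CPM to 964, 727 and 737 CPM (log2 fold change -0.91 ± 0.10 (SE), adjusted p = 1.51e-05). All treated libraries of both genes lay below the controls. TCF4 and S100A4 fell by 1.05 and 1.04 (adjusted p = 3.14e-06 and 1.63e-04), and the EMT regulators ZEB1, ZEB2 and SNAI2 and the receptor gene AXL were among the members that fell. The 6 members that rose included the matrix genes COL6A3 and SPARC, the membrane protease gene MMP14 and the repressor gene SNAI1, at log2 fold changes of 2.61, 2.08, 1.18 and 1.16 (adjusted p = 2.42e-07, 1.12e-08, 1.43e-06 and 3.76e-04). COL6A3, SPARC and MMP14 stood below 1 CPM with DMSO. CDH2, N-cadherin, stood at 79.0 and 77.6 CPM (log2 fold change -0.024, adjusted p = 0.944). In the 6 libraries alone 7 members of the list were lower. The fibroblast marker sum given above spanned 13.3 to 16.1 CPM with DMSO and 9.15 to 15.1 CPM with the drugs, and its part in these values was not tested.

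Among 34 tested TGF-beta response genes 9 fell (26.5%) and 5 rose (14.7%), against 7.22% and 10.3% of all genes. The rises were 3 without treated replicate 3 and 8 with library totals. The falls were 14 with the replicate block in the 6 libraries. CCN1 and CCN2, secreted matricellular proteins, fell by 1.36 and 1.30 (adjusted p = 0.00242 and 0.00738), with CCN2 at 1312, 1206 and 982 CPM in DMSO and 499.9, 549 and 379.6 CPM in treated libraries. TGFBR1, the type I receptor, went from 1577, 1317 and 1040.0 CPM to 824, 717 and 539.7 CPM (log2 fold change -0.92 ± 0.16 (SE), adjusted p = 5.61e-04), while the signal transducer SMAD3 rose from 177, 182 and 214 CPM to 405, 366 and 396 CPM (log2 fold change 1.03 ± 0.085 (SE), adjusted p = 5.57e-07). Receptor and transducer of the pathway thus moved in opposite directions. Of 43 collagens, laminins and integrins 14 fell (32.6%) and 6 rose (14.0%). Without DMSO replicate 1, 9 fell, and 10 rose with the replicate block in the 6 libraries. ITGB8, the integrin subunit that activates latent TGF-beta, went from 188, 271 and 259 CPM to 68.3, 108 and 96.5 CPM (log2 fold change -1.39 ± 0.16 (SE), adjusted p = 1.58e-05), and COL12A1, a fibril-associated collagen, fell by 0.76 (adjusted p = 3.37e-05). Of 28 ERK feedback and immediate early genes 7 fell (25%) and 3 rose (10.7%), the latter share near that of all genes. The rises were 1 without treated replicate 2, and 12 genes fell with the replicate block in the 6 libraries. DUSP6, the phosphatase that shuts off ERK, went from 398, 367 and 282 CPM to 136, 139.9 and 99.4 CPM (log2 fold change -1.47 ± 0.30 (SE), adjusted p = 0.00264), and SPRY2 and DUSP7 of the same feedback fell by 0.74 and 0.64 (adjusted p = 0.00310 and 0.00620).

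The steepest falls were in DEPTOR, an inhibitor of the kinase mTOR, and in APLN, the peptide ligand apelin. DEPTOR stood at 118, 84.3 and 60.03 CPM with DMSO and at 30.9, 20.4 and 15.4 CPM with the drugs (log2 fold change -1.93 ± 0.22 (SE), adjusted p = 1.51e-05). APLN went from 26.7, 30.9 and 39.7 CPM to 8.66, 8.22 and 10.5 CPM (log2 fold change -1.71 ± 0.15 (SE), adjusted p = 1.33e-06). LPL, lipoprotein lipase, went from 857, 753 and 535 CPM to 293, 265 and 159 CPM (log2 fold change -1.60 ± 0.24 (SE), adjusted p = 2.07e-04). The arms of these genes did not overlap, although DEPTOR varied widely among the controls. CPA4, a secreted carboxypeptidase, CA2, a carbonic anhydrase, SH3BGRL3, ACP3, an acid phosphatase, TMEM132B and ANKRD1, a nuclear protein of muscle and stressed cells, fell by 1.57, 1.58, 1.53, 1.53, 1.46 and 1.44 on the same scale, with adjusted p from 4.24e-06 to 7.38e-04 except for TMEM132B at 1.40e-09. The chemokine gene CXCL5 went from 646, 268 and 194 CPM to 179.7, 97.7 and 77.8 CPM (log2 fold change -1.53 ± 0.36 (SE), adjusted p = 0.00665), with 1 control far above the other two. CCR1, a chemokine receptor, fell from 3.83, 10.7 and 13.6 CPM to 1.59, 2.43 and 2.76 CPM (log2 fold change -1.54 ± 0.27 (SE), adjusted p = 7.08e-04).

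Of 38 tested epithelial identity and junction genes 15 rose (39.5%) and 3 fell (7.89%), against 10.3% and 7.22% of all genes. The median log2 fold change was 0.22, and 5 members were lower with the replicate block in the 6 libraries. The leading rises began from low levels. Besides ELF3 and CLDN7, TJP3, a tight junction scaffold, and F11R, a junctional adhesion molecule, rose by 1.47 and 1.18 (adjusted p = 2.32e-07 and 2.35e-05). CDH1, E-cadherin, was called higher but stayed below 0.5 CPM, at 0.00887, 0 and 0.0191 CPM and 0.214, 0.264 and 0.396 CPM. The members that fell were KRT19, a simple-epithelium keratin, from 192, 249 and 369 CPM to 141, 107 and 138 CPM (log2 fold change -1.02 ± 0.22 (SE), adjusted p = 0.00424), the surface glycoprotein CD24 (-0.91, adjusted p = 3.83e-04) and the claudin CLDN1 (-0.61, adjusted p = 0.00327), which stood well above 50 CPM in every library. Of 29 HOX genes 10 rose (34.5%) and 2 fell (6.90%), against 10.3% and 7.22% of all genes. HOXA2 and HOXC10 rose by 1.43 and 1.32 (adjusted p = 5.06e-06 and 1.25e-07). HOXB5 and HOXB6 were called lower at -0.31 and -0.30, but neither with library totals (adjusted p = 0.138 and 0.255). The HOXB6 call was lost without any 1 of the 6 libraries (adjusted p up to 0.159) and that of HOXB5 without treated replicate 2 or DMSO replicate 1 or 2 (adjusted p up to 0.105). With the replicate block HOXB6 was not called in 18 libraries (adjusted p = 0.0593), nor HOXB5 in the 6 (adjusted p = 0.0766). Of 10 lung lineage genes 2 rose (20%) and 1 fell (10%), against 10.3% and 7.22% of all genes. The falls were 2 with the replicate block in the 6 libraries and without treated replicate 1. LAMP3 went from 4.55, 4.07 and 1.50 CPM to 10.9, 16.0 and 9.86 CPM (log2 fold change 1.65 ± 0.28 (SE), adjusted p = 6.46e-04), and SOX2, a stem cell and airway factor, from 2.33, 3.17 and 2.41 CPM to 0.733, 1.02 and 0.971 CPM (log2 fold change -0.93 ± 0.068 (SE), adjusted p = 1.95e-07). Of 17 neuronal and neuroendocrine markers 3 rose and 3 fell (17.6% each, against 10.3% and 7.22% of all genes). The count of falls was 6 with the replicate block in the 6 libraries and 5 without DMSO replicate 1. SYP, synaptophysin, rose by 1.01 (adjusted p = 3.79e-06) and the vesicle fusion gene SNAP25 fell by 0.57 (adjusted p = 0.00207). Of 8 tested immune cell markers limma called 0 in either direction, 1 was higher at an unadjusted p under 0.05, and edgeR called 1 and DESeq2 2 of them higher. Among 8 endothelial markers 2 rose (25%) and 1 fell (12.5%), against 10.3% and 7.22% of all genes. Of 8 fibroblast markers PDGFRB alone (12.5%) fell, from 10.9, 10.1 and 9.34 CPM to 8.49, 5.73 and 4.62 CPM (log2 fold change -0.64 ± 0.14 (SE), adjusted p = 0.00438).

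**Figure D3:**
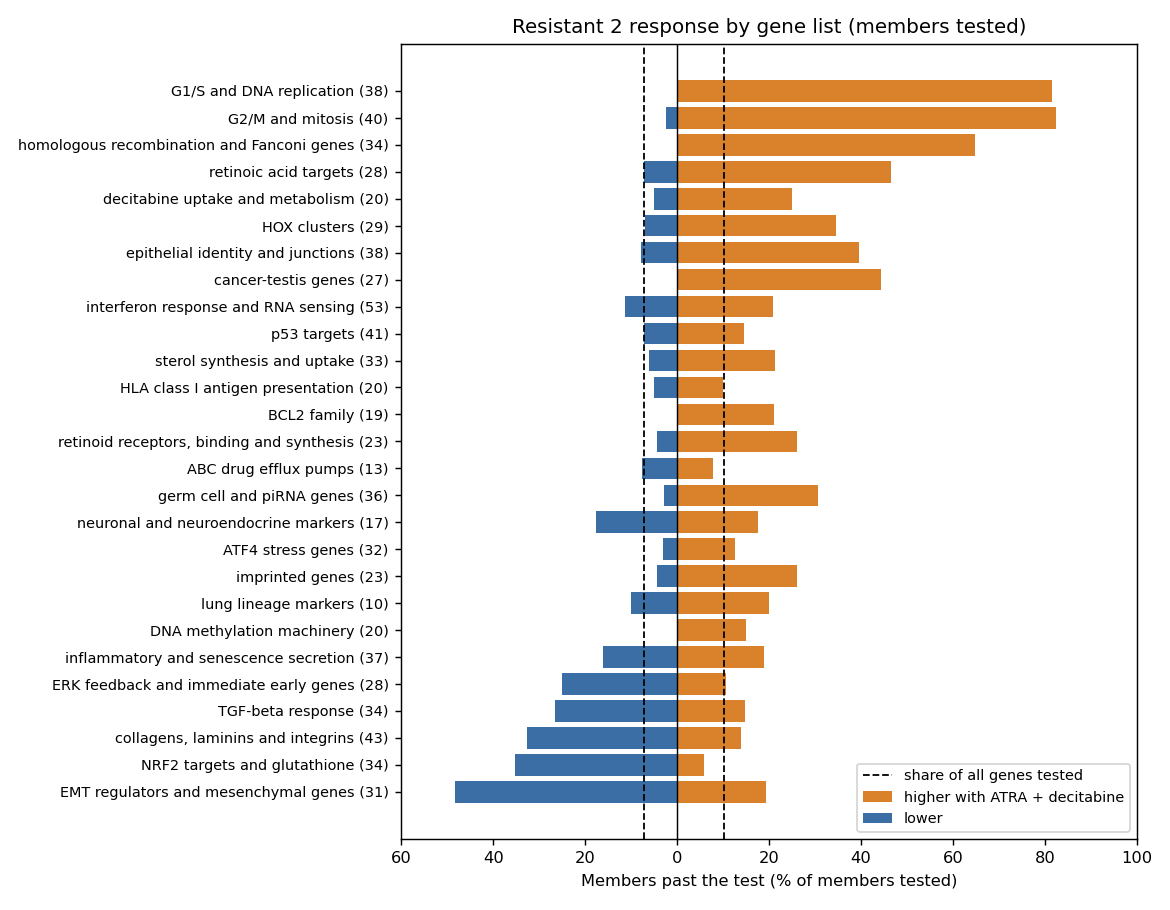
Share of tested members called higher (orange, to the right) and lower (blue, to the left) in treated resistant 2 cells for the lists with at least 10 tested members, ordered by their median log2 fold change; the number tested stands in brackets and dashed lines mark the shares of all genes (10.3% higher, 7.22% lower). Replication, mitosis and recombination genes lie at the top and EMT and mesenchymal genes at the bottom, with 15 of 31 lower.

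Interferon genes moved both ways: of 53 tested 11 rose (20.8%) and 6 fell (11.3%), against 10.3% and 7.22% of all genes. That split was 19 and 2 with library totals, and the count of falls was 2 without treated replicate 3 and 10 with the replicate block in the 6 libraries. BST2, tetherin, which holds virions at the cell surface, went from 1.83, 1.45 and 2.04 CPM to 7.56, 6.07 and 8.42 CPM (log2 fold change 1.59 ± 0.11 (SE), adjusted p = 5.26e-08), and the ubiquitin-like ligase gene HERC5 and the apoptosis factor gene XAF1 rose by 0.80 and 0.61 (adjusted p = 3.77e-04 and 0.00139). RIGI, a sensor of viral RNA, fell from 17.1, 27.2 and 29.7 CPM to 13.7, 15.2 and 16.2 CPM (log2 fold change -0.65 ± 0.14 (SE), adjusted p = 0.00471). Of 20 HLA class I and antigen presentation genes 2 rose and 1 fell, again near the shares of all genes, with 4 and 0 by library totals, 4 higher without DMSO replicate 1 and 1 without DMSO replicate 2 or 3. The member that fell was not called without treated replicate 1 or 3 or without any 1 control. B2M, the light chain of class I molecules, stood at a mean of 1431 CPM with DMSO and 1265 CPM with the drugs (log2 fold change -0.17, adjusted p = 0.236). Of 37 secreted inflammatory and senescence factors 7 rose (18.9%) and 6 fell (16.2%), the latter 3 without treated replicate 3 and 10 with the replicate block in the 6 libraries. IGFBP3, a binding protein of insulin-like growth factors, went from 677, 688 and 667 CPM to 1571, 1841 and 1923 CPM (log2 fold change 1.39 ± 0.15 (SE), adjusted p = 6.66e-06), and IGFBP6 and the growth factor gene CSF1 rose by 1.53 and 1.19 (adjusted p = 1.58e-05 and 0.00209).

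NRF2 targets, which detoxify electrophiles and make glutathione, fell in part. Of 34 tested 12 were lower (35.3%) and 2 higher (5.88%), against 7.22% and 10.3% of all genes. The median log2 fold change was -0.18. AKR1B10 and AKR1C3, aldo-keto reductases, fell from 772, 1202 and 1105 CPM to 457, 601 and 569 CPM (log2 fold change -0.90 ± 0.14 (SE), adjusted p = 3.28e-04) and by 0.71 (adjusted p = 3.12e-05). ABCC2, a conjugate exporter, and SLC7A11, the cystine importer, fell by 0.79 and 0.74 (adjusted p = 3.64e-06 and 0.00110). The 2 members that rose were the glutathione peroxidases GPX2 and GPX3, GPX3 by 0.59 (adjusted p = 0.00211). In the 6 libraries alone 5 members were lower, and with library totals 7 were lower and 4 higher. With the replicate block in the 6 libraries 5 were higher. Of 13 ABC drug efflux pumps 1 rose and 1 fell (7.69% each, near the shares of all genes), with 2 higher without DMSO replicate 1. ABCG2, which exports many cytotoxic drugs, rose from 11.4, 11.8 and 15.001 CPM to 25.9, 31.6 and 45.1 CPM (log2 fold change 1.33 ± 0.15 (SE), adjusted p = 9.88e-06), and ABCC2 was the member that fell. Of 32 ATF4 stress genes 4 rose (12.5%) and 1 fell (3.12%), against 10.3% and 7.22% of all genes, with 8 higher without DMSO replicate 1 and 3 lower without DMSO replicate 3. ATF5, a transcription factor of this response, went from 54.7, 51.6 and 51.3 CPM to 199, 203 and 196 CPM (log2 fold change 1.90 ± 0.11 (SE), adjusted p = 7.73e-09), and the amino acid importer gene SLC7A5 rose by 0.79 (adjusted p = 0.00365). Of 33 sterol synthesis and uptake genes 7 rose (21.2%) and 2 fell (6.06%), the latter 0 without treated replicate 3 or DMSO replicate 1 and with library totals, and 1 with any other of the 6 libraries left out. The count of rises was 11 with library totals and 13 with the replicate block in the 6 libraries. ABCA1, a cholesterol exporter, and FADS2, a fatty acid desaturase, rose by 0.90 and 0.86 (adjusted p = 1.60e-05 and 1.53e-04).

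The response was next compared with that of parental cells by the difference of the 2 responses, which is an interaction term of the fit. It was more positive in resistant 2 for 5078 genes (24.8%) and more negative for 5333 (26.1%), together 50.9% of genes. In parental cells 6761 genes rose (33.1%) and 6737 fell (32.9%), so calls covered 66.0% of genes there against 17.5% in resistant 2. Scaling by library totals turned the split of the difference to 2823 more positive and 7312 more negative, a shift of the median gene from 0.02 to -0.11. DESeq2 size factors gave 3951 and 6018, and upper-quartile factors 3453 and 6515. CDKN1A rose by 3.34 in parental cells, from 44.9 to 462 CPM, against -0.39 in resistant 2, a difference of -3.73 (adjusted p = 3.19e-11). Its mean in resistant 2 was 1059 CPM with DMSO, above the level of treated parental cells. For MDM2 the parental response was 2.92, and the difference was -2.57 (adjusted p = 2.25e-10). Of 41 p53 targets, 34 had a response that was more negative in resistant 2 and 0 one that was more positive (0 also at an unadjusted p under 0.05). Against resistant 1, limma called 0 of the 41 in either direction, where 1.82% of all genes were more positive and 3.24% more negative. More negative responses than in parental cells were also found for 23 of 27 cancer-testis genes, 26 of 36 germ cell genes and 18 of 28 retinoic acid targets. The opposite sense had 0, 2 and 2. Germ-line genes near silent in resistant 2 can pass the read filter through treated parental libraries alone. In parental cells 24 of the 27 and 31 of the 36 rose, so the cancer-testis and germ cell counts of this difference are no evidence. List counts of this difference were not repeated with other tools.

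Proliferation lists differed the other way. The response was more positive in resistant 2 for 28 of 38 G1/S genes, 35 of 40 G2/M genes and 28 of 34 recombination genes, with 1, 1 and 0 more negative. Of all genes, 24.8% were more positive and 26.1% more negative in this difference. In parental cells 24 of the 40 G2/M genes fell and 2 rose, where 32.9% of all genes fell and 33.1% rose. MKI67 responded with -0.12 in parental and 0.96 in resistant 2 cells, a difference of 1.08 (adjusted p = 3.64e-04). The NRF2 and ATF4 lists differed in the same sense, with 20 of 34 and 26 of 32 genes more positive and 1 and 1 more negative. Against resistant 1, 0 NRF2 and 1 ATF4 genes were more positive and 1 and 0 more negative. Of all genes, 1.82% and 3.24% were so called against resistant 1. Among ATF4 genes, TRIB3, a pseudokinase, fell in parental cells from 368 to 63.0 CPM and stood at 249.6 and 278 CPM in resistant 2 (difference 2.75, adjusted p = 1.13e-06). PHGDH, the first enzyme of serine synthesis, showed the same pattern with a difference of 2.41 (adjusted p = 9.48e-12). INHBE, a hepatic activin subunit, had the steepest positive difference and rose in resistant 2 from 2.08, 2.38 and 1.27 CPM to 13.4, 17.4 and 13.5 CPM (log2 fold change 2.45 ± 0.14 (SE), adjusted p = 8.08e-09).

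The steepest negative differences were in genes that parental cells switched on and resistant 2 cells did not. SLC34A2, a phosphate transporter of the lung, reached 305 CPM in treated parental cells and 0.0186, 0.0543 and 0.0155 CPM in treated resistant 2 cells (difference -8.20, adjusted p = 1.29e-15). TRIM43B, H3Y1 and TAF11L14 were at 0 reads in all 3 DMSO libraries of resistant 2 and at means of 0.00517, 0.0408 and 0.00309 CPM with the drugs, against 194, 111 and 61.8 CPM in treated parental cells. These 3 genes belong to families with near-identical copies, and edgeR did not call their difference (adjusted p = 1.000 for each). VCAN, the matrix proteoglycan versican, went from 0.441 to 70.2 CPM in parental cells and stood at 22.4, 39.9 and 56.2 CPM and 18.3, 32.4 and 43.4 CPM in resistant 2, lower with the drugs at an adjusted p of 0.0117 with the replicate block in the 6 libraries and of 0.577 without it. Its level in resistant 2 was thus already high before treatment.

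**Figure D4:**
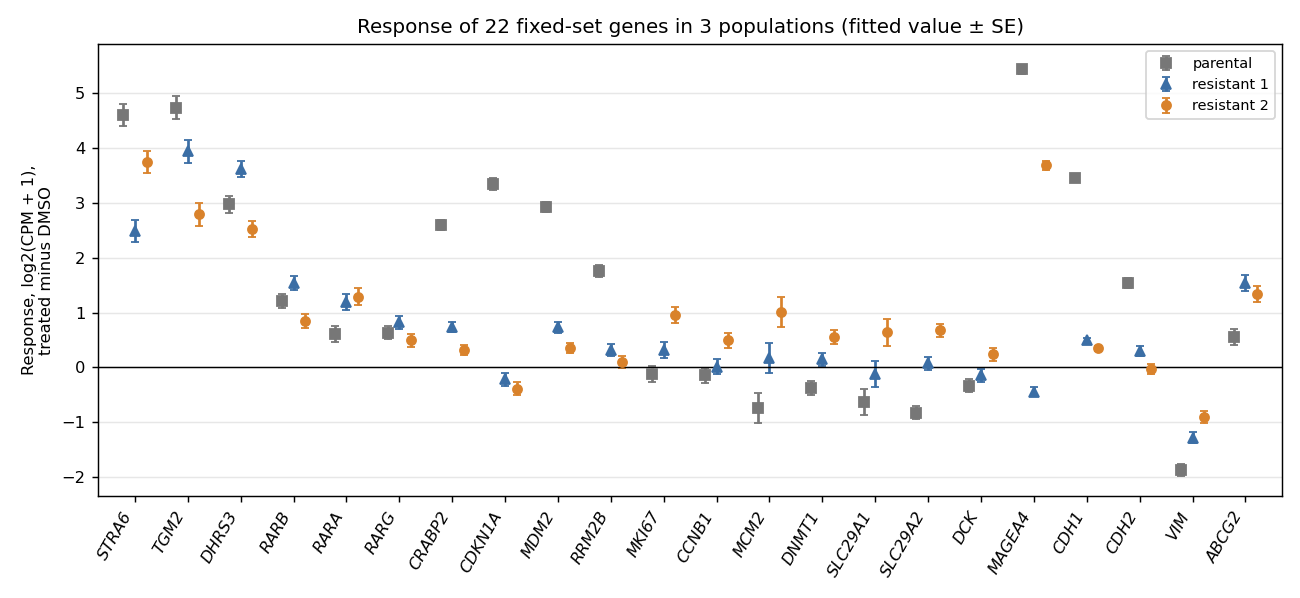
Response to ATRA plus decitabine in parental (grey squares), resistant 1 (blue triangles) and resistant 2 cells (orange circles) for 22 genes, as the fitted difference of log2(CPM + 1), treated minus DMSO, with bars of 1 SE. CDKN1A and MDM2 stand at 3.34 and 2.92 in parental cells and at -0.39 and 0.35 in resistant 2, while MCM2 stands at -0.74 and 1.01.

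The responses of the 2 resistant populations differed at fewer genes, with 373 more positive (1.82%) and 662 more negative (3.24%) in resistant 2, together 5.06% of genes. Both sets of differences share the 6 resistant 2 libraries. The first count was 569 without DMSO replicate 3 of resistant 2 and 223, 220 and 237 without its treated replicate 2, treated replicate 3 or DMSO replicate 2. MAGEA4 was the leading case: it was high in resistant 1 under both conditions, at 472 and 348 CPM, and rose in resistant 2 from near 0 to a mean of 13.8 CPM (difference 4.13, adjusted p = 4.08e-12). SSX1 and SPARC followed the same pattern, with 104 and 72.5 CPM in untreated resistant 1 cells and differences of 1.93 and 1.81 (adjusted p = 1.16e-07 and 7.96e-06). AKAP12, a scaffold of protein kinase A, went from 95.7, 87.1 and 92.2 CPM to 419.5, 421 and 392 CPM in resistant 2 and stood at 678 and 809 CPM in resistant 1. KRT81, a hair keratin, showed the reverse: it went from 3.19 to 402 CPM in resistant 1 and stood at 1091, 718 and 853 CPM and 1440.2, 894 and 1019 CPM in resistant 2 (difference -6.30, adjusted p = 4.36e-08). IGFBP5, another growth factor binding protein, rose in resistant 1 to 25.4 CPM and stood at 2901 and 2259 CPM in resistant 2 (difference -3.35, adjusted p = 6.86e-08). A level that was high from the start accompanied the smaller response in each of these 6 genes, which were picked from the steepest differences. TKTL1 went the other way: it responded less in resistant 2 (difference -3.14 on the log2(CPM + 1) scale) and was near silent there with DMSO. Whether the starting level played a part was not tested. Among retinoid genes, DHRS3 responded less in resistant 2 (2.52 against 3.62, adjusted p = 0.00619). TGM2 (2.79 against 3.94, adjusted p = 0.0318) and RARB (0.84 against 1.55, adjusted p = 0.0315) were called the same way. The call of TGM2 was lost without treated replicate 2 or 3 or DMSO replicate 1 (adjusted p up to 0.0738) and that of RARB without treated replicate 1 or DMSO replicate 2 or 3 (adjusted p up to 0.0869). For STRA6 the sign of the difference depended on the scale: it was 1.25 on the log2(CPM + 1) scale and -3.98 with edgeR, with 0.0186 and 4.82 CPM in resistant 1 before and after treatment. The same held for ISLR2 and NCMAP, at 1.63 and -2.31 on the log2(CPM + 1) scale and -0.24 and 2.04 with edgeR, both genes starting below 1 CPM in one of the populations.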

How the data were processed

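The submitters' processing notes name FastQC and MultiQC (read quality), STAR (an aligner), featureCounts (a read counter), DESeq2 and the build GRCh38 (hg38). Versions and the strand setting were not given in the sources used here, so antisense and overlapping genes cannot be told apart. The authors deposited 2 tables of normalized counts (signal values, reads divided by a size factor), 1 for DMSO and 1 for treated libraries. In the treated table the deposited values are digits whose decimal points were lost.

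Each DMSO library's value of 1 read was recovered and gave whole reads for 100% of values. In the treated table the same demand left each number known up to a power of 10, which models chose. Genes were kept only where a model of the treated libraries and a model around the DMSO level of the same population agreed (posterior at least 0.99). Below a mean of 30 normalized counts 46.7% of genes were resolved, and from 30 to 100 67.2%. Libraries were scaled together by TMM (edgeR 4.0.16), and log2(CPM + 1) of 20448 genes with at least 10 reads in 3 of 18 libraries was fitted by limma 3.58.1 with 6 groups in R 4.3.3, without the replicate block, with Benjamini-Hochberg adjustment over all genes tested and a threshold of 0.05. EdgeR's quasi-likelihood test and DESeq2 1.42.0 on the restored reads were alternatives, as were other scalings, filters, pseudocounts, restoration limits and leaving out each library. On simulated data over 20448 genes, the resistant 2 comparison found 64.2%, 92.5% and 98.5% of changes of 1.5, 2 and 4-fold, with 16 false among 186 calls. The changed genes all had a mean of at least 100 reads with DMSO, so these shares do not cover weaker genes. The simulated libraries had no shared deviations by replicate number and no step that restores decimal points.

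Libraries with the same replicate number deviated together from the mean of their arm across the 2 resistant 2 arms (r = 0.75, 0.79 and 0.86). The numbers, which come from the titles, were therefore read as pairing the samples. Such deviations cancel within an arm, so the negative values for different numbers (-0.11 to -0.69) follow from the positive ones and add no support. Replicates differed by far more than counting error (chi-square per degree of freedom 92.3 to 235). Gene symbols, types and coordinates came from GENCODE 29 for 57447 of 58051 identifiers, and promoters from RefSeq (35116 windows of 27305 symbols). Genes named are, per direction, the 12 with the steepest change (at least 5 CPM, libraries not overlapping), up to 4 called members of each of 31 lists (at least 1 CPM), the 6 with the steepest difference of responses, and a fixed set of 40, of which 31 were tested. Some genes that this rule names are not reported here. The comparison and the lists were chosen with earlier results of these data known.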

Additional observations from a re-analysis of the deposited data

Results flagged for a closer look

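The response to ATRA plus decitabine differed between resistant 2 and parental cells, by the interaction term of the limma fit, at 5078 genes that were more positive and 5333 that were more negative in resistant 2. Among the steepest differences, SLC34A2 (-8.20), TRIM43B (-7.57), ALPG (-7.24), H3Y1 (-6.72), TAF11L14 (-5.93) and the proteoglycan gene VCAN (-5.91) responded more negatively in resistant 2 on the log2 scale. INHBE (3.15), AKNA (3.10), TRIB3 (2.75), the complement receptor gene C5AR1 (2.56), PHGDH (2.41) and the monocarboxylate transporter gene SLC16A7 (2.35) responded more positively. Of the fixed set, the negative differences were those of CDKN1A (-3.73), CDH1 (-3.10), MDM2 (-2.57), CRABP2 (-2.28), TGM2 (-1.94), MAGEA4 (-1.75), RRM2B (-1.66), CDH2 (-1.56) and STRA6 (-0.85), the last of which turned to 0.28 with 5 CPM added before the logarithm. The positive differences of the set were those of MCM2 (1.75), SLC29A2 (1.50), SLC29A1 (1.27), MKI67 (1.08), VIM (0.96), DNMT1 (0.94), ABCG2 (0.79), RARA (0.68), TET1 (0.65), CCNB1 (0.64) and DCK (0.57). With library totals those of ABCG2, RARA, TET1, CCNB1 and DCK were no longer called (adjusted p from 0.0517 to 0.176). TET1 also lost its call without treated replicate 2 or DMSO replicate 1 (adjusted p up to 0.0662).

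Against resistant 1, the response differed at 373 genes that were more positive and 662 that were more negative in resistant 2. The steepest were KRT81 (-6.30), IGFBP5 (-3.35), TKTL1 (-3.14), the collagen gene COL14A1 (-3.09), the keratin gene KRT86 (-2.77) and NCMAP (-2.31) on one side and MAGEA4 (4.13), CELF4 (2.13), SSX1 (1.93), AKAP12 (1.90), SPARC (1.81) and ISLR2 (1.63) on the other. TKTL1 was not called by edgeR (adjusted p = 0.781). Of the fixed set, STRA6 (1.25) and SLC29A2 (0.60) were more positive and TGM2 (-1.15), DHRS3 (-1.09) and RARB (-0.71) more negative. SLC29A2 lost its call without treated replicate 2 or 3 or DMSO replicate 2 or 3 (adjusted p up to 0.127) and with the replicate block (adjusted p = 0.0549), and the limits of STRA6, TGM2, RARB, ISLR2 and NCMAP are given with the values above. These genes were picked for the size of their difference or belong to the fixed set, and no explanation of the differences was tested.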

How the results depend on the processing

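The count of genes raised in resistant 2 was 2104 and of genes lowered 1477. They were 1003 and 534 when fitted without the other populations, with 1414 of the 1537 calls shared with the main result. Lowered genes were 813 with library totals and 2771 with the replicate block in the 6 libraries. With the replicate block in 18 libraries the counts were 2244 and 1628, with edgeR 2383 and 1402, and with DESeq2 2450 and 1933. With 1 library left out, raised genes ranged from 1530 to 2128 and lowered ones from 1078 to 1488. The difference against parental cells was more positive at 2823 genes with library totals, and at 4574 to 5106 (more negative at 5134 to 5337) with 1 library left out. The difference against resistant 1 was more positive at 203 genes without the parental libraries, 226 with a stricter restoration limit and 243 with decimal points restored from the treated libraries alone, an alternative added after the data were seen. It was more negative at 388 genes with edgeR and 435 with the stricter restoration limit. With 1 library left out these counts ranged from 220 to 569 and from 504 to 713. With the replicate block the 4 difference counts were 5368 and 5507 against parental and 424 and 735 against resistant 1. Among all genes called in both settings, the difference against parental had the opposite sign at 24 genes with edgeR and 19 with DESeq2. Against resistant 1 it had the opposite sign at 10 and 11. Among the genes named for a difference or in the fixed set, the sign of a difference reversed in 3. For STRA6 it became 0.28 against parental with a pseudocount of 5, and against resistant 1 it became -3.98 with edgeR, -4.10 with DESeq2 and -1.39 with a pseudocount of 0.1. ISLR2 came to -0.24 and -0.33 and NCMAP to 2.04 and 2.27 with edgeR and DESeq2; these genes stood near 0 CPM in 1 of the groups. Of the 177 named genes called in resistant 2, 90 were called in every setting in which they were tested and 87 were lost in at least 1. The cause of these changes was not tested. Depth limits mainly what could be restored: genes under 30 normalized counts were resolved in 46.7% of cases. Absence of a weakly expressed gene from these results therefore says nothing about it. Falls near 10-fold could be left unresolved or restored 10-fold too high, which was not tested.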
